A study of Mus musculus with 6 samples.

Results

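The 10 genes described here encode carriers and regulators of amino acid transport known from T cells: Slc7a5, Slc3a2, Slc7a6, Slc7a11, Slc43a1, Slc1a5, Slc38a1, Slc38a2, Slc7a1 and Slc38a9. They were chosen by symbol, all 10 were found among the 32377 gene identifiers of the deposited count table, and all 10 passed the filter on low counts. The study compared mouse RNA-seq libraries of 3 TNFR2-deficient samples with those of 3 TNFR2-positive samples, both labelled as regulatory T (Treg) cells, the CD4 T cells that restrain other immune cells and need the transcription factor Foxp3. TNFR2, encoded by Tnfrsf1b, binds tumour necrosis factor. The labels give no strain, age, tissue, sorting gate or means of the deficiency, and they do not say whether each library is a separate animal. The p-values therefore speak of spread among these libraries, some or all of which may be technical.

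Resting T cells take up few amino acids, and uptake rises when the cells are activated and grow. The system L carrier LAT1 brings in leucine and other large neutral amino acids in exchange for glutamine, and it reaches the cell surface only when bound to the heavy chain 4F2hc (CD98). Glutamine enters through ASCT2 and the SNAT carriers, arginine and lysine through CAT1, and cystine, the source of cysteine for glutathione, through xCT. Inside the cell, leucine and arginine are sensed at the lysosome, where they switch on the kinase complex mTORC1. Lack of amino acids instead engages the kinase GCN2 and the transcription factor ATF4, whose known targets include several of these carriers.

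Depth was similar across libraries, at 22465991 to 24038118 counts in TNFR2-deficient libraries and 19296082 to 23587552 in TNFR2-positive ones. A floor of 3 counts corresponds to 0.125 to 0.155 CPM (counts scaled to library size) and covers only the error of counting. TNFR2-positive library 1 stood apart from its replicates, with a chi-square per gene of 15.3 and 20.6 against libraries 2 and 3, compared with 2.54 between those, so transporter results that lose their call without it are given both ways. Tnfrsf1b was lower in the TNFR2-deficient libraries, at 8.30, 7.99 and 7.32 CPM against 84.6, 84.2 and 80.2 CPM in the TNFR2-positive ones. The cell type label did not hold equally in the 2 groups. Foxp3 was at 1.34 to 1.53 CPM in TNFR2-deficient libraries and 73.0 to 76.9 CPM in TNFR2-positive libraries, and 10 of 10 Treg markers were lower (summed 56.7 to 59.0 against 740.4 to 805.7 CPM). Markers of double-positive thymocytes, the immature cells that rearrange the T cell receptor alpha chain, were higher for 10 of 10, at a summed 3349 to 3469 CPM in TNFR2-deficient libraries and 329.0 to 343.4 CPM in TNFR2-positive libraries, where Ptcra had at most 3 counts. T cell markers as a whole were higher for 8 of 10 and lower for 1, at a summed 3237 to 3404 CPM in TNFR2-deficient and 1301 to 1396 CPM in TNFR2-positive libraries. Beside these and the following counts of markers, 69.3% of all tested genes were called by the edgeR test described below, 35.1% higher and 34.2% lower. Markers of other lineages were present in both groups. B cell markers summed to 11701 to 12257 CPM in TNFR2-deficient and 9437 to 10127 CPM in TNFR2-positive libraries (6 of 8 higher, 1 lower), and myeloid markers to 895.0 to 967.4 and 477.5 to 535.7 CPM (7 of 10 higher). Erythroid markers summed to 18076 to 20621 CPM in TNFR2-deficient and 4238 to 7012 CPM in TNFR2-positive libraries (8 of 8 higher). Hepatocyte markers summed to 174.2 to 265.6 CPM in TNFR2-deficient and 39.6 to 42.9 CPM in TNFR2-positive libraries (5 of 5 tested higher), and platelet markers to 14.97 to 17.9 and 4.84 to 6.09 CPM (4 of 5 tested higher). Most of the hepatocyte sum in each library was Trf, at 157.1 to 175.0 CPM in TNFR2-deficient and 39.4 to 42.8 CPM in TNFR2-positive libraries. Alb was uneven, at 63.1, 4.33 and 12.8 CPM in TNFR2-deficient libraries and at most 0.0936 CPM in TNFR2-positive ones. Of the hepatocyte list, Ttr, Serpina1a, Fgb and Ahsg had no counts in TNFR2-positive libraries. In bulk RNA, fewer cells of a type and less RNA per cell cannot be told apart, and this holds for every value below.

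Transporter transcripts shifted in both directions. With edgeR's quasi-likelihood test and Benjamini-Hochberg adjustment over 17022 genes at a threshold of 0.05, 2 of the 10 were higher in the TNFR2-deficient libraries and 6 were lower. The transcripts that rose were those of xCT and LAT3. Those that fell were Slc7a5, Slc7a6, Slc38a1, Slc38a2, Slc7a1 and Slc38a9, and Slc3a2 and Slc1a5 did not pass the threshold. A share of 8 in 10 is close to that of the whole transcriptome, since 69.3% of all tested genes were called in this comparison, 35.1% higher and 34.2% lower. Likewise, the 3 TNFR2-deficient and 3 TNFR2-positive libraries did not overlap for 8 of the 10 transporters, beside 74.5% of all tested genes. The median log2 fold change (log2FC, TNFR2-deficient over TNFR2-positive) was -0.28 over the 10 transporters and 0.04 over all tested genes, and the median absolute log2FC was 0.41 and 0.49.

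Gene length enters these values. Longer genes were lower in the TNFR2-deficient libraries across 16623 tested genes with a known exonic length (Spearman rho = -0.298, a description across genes that are not independent). All 10 transporters are longer than the tested genes' median of 3509 exonic bases, with a median of 7277 bases. With each library's relation to exonic length removed, 3 transporters were higher and 3 lower, beside 39.0% and 29.2% of all genes in the same fit, and the transporters' median log2FC was 0.06. The calls for Slc7a11, Slc43a1, Slc7a5, Slc7a6 and Slc7a1 stood after this removal, those for Slc38a1 and Slc38a2 were lost, and the direction of Slc38a9 turned. The removal is fitted to these same 6 libraries, so it also takes out any group difference in the cells that goes with length. Values after removal are therefore an alternative reading and not a corrected one.

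**Figure D1:**
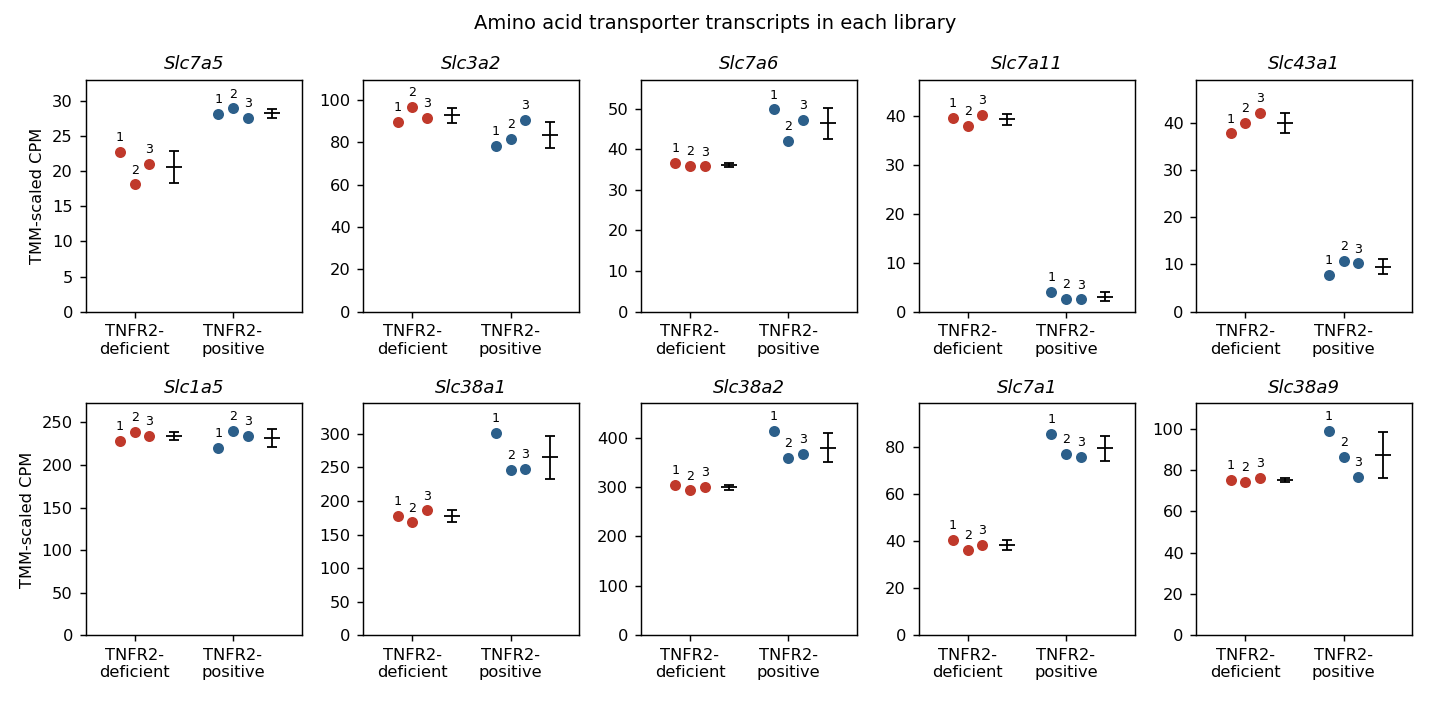
TMM-scaled CPM (vertical axes, linear from 0) of each transporter in 3 TNFR2-deficient (red) and 3 TNFR2-positive (blue) libraries, numbered by library, with bars for the mean and SD. Slc7a11 lies at 38.0 to 40.2 CPM in TNFR2-deficient libraries and 2.53 to 4.07 CPM in TNFR2-positive ones, Slc43a1 is also apart, and the groups overlap for Slc3a2 and Slc1a5.

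Slc7a11 (ENSMUSG00000027737, chromosome 3) encodes xCT, a light chain that joins 4F2hc and exchanges intracellular glutamate for cystine. It had 39.6, 38.0 and 40.2 CPM in TNFR2-deficient libraries and 4.07, 2.66 and 2.53 CPM in TNFR2-positive libraries. The TNFR2-positive values rest on 95, 52 and 54 counts, against 915, 843 and 968 counts in TNFR2-deficient libraries. The lowest TNFR2-deficient library thus lies far above the highest TNFR2-positive one, and within the TNFR2-positive group library 1 is the highest. The transcript was 12.6-fold higher (log2FC = 3.65, standard error (SE) 0.131, edgeR adjusted p = 9.45e-10), in place 161 from the top of the 17022 tested genes by log2FC. An increase of at least 4-fold was called for 2.72% of all tested genes, and Slc7a11 and Slc43a1 were the transporters past that size. The log2FC was 3.92 without TNFR2-positive library 1 and 4.24 with the relation to exonic length removed.

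Slc43a1 (ENSMUSG00000027075, chromosome 2) encodes LAT3, a carrier of leucine and other branched-chain amino acids and phenylalanine that needs no heavy chain. It had 37.7, 39.8 and 42.1 CPM in TNFR2-deficient libraries and 7.71, 10.7 and 10.2 CPM in TNFR2-positive libraries. The groups did not overlap, and TNFR2-positive library 1 was the lowest of all 6. The transcript was 4.19-fold higher (log2FC = 2.07, SE 0.108, edgeR adjusted p = 2.08e-08), with a log2FC of 1.93 without TNFR2-positive library 1. Erythroid markers were also higher in TNFR2-deficient libraries and lowest in TNFR2-positive library 1 (18076, 20621 and 19198 CPM in TNFR2-deficient against 4238, 6609 and 7012 CPM in TNFR2-positive libraries). Myeloid and thymocyte markers were higher too, by the values given above. The part of these cells in the rises of Slc7a11 and Slc43a1 was not tested.

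The sequences before the starts of Slc7a11 and Slc43a1 are shown because these genes had the largest increases among the 10. They are the 250 bases ahead of the RefSeq start on the mouse build GRCm38.p6, 5′ to 3′ on the gene's strand, at chr3:50443614-50443863 (minus strand) for Slc7a11 and chr2:84840073-84840322 (plus strand) for Slc43a1. Capitals mark matches to one of 3 motifs, searched on both strands.
Slc7a11: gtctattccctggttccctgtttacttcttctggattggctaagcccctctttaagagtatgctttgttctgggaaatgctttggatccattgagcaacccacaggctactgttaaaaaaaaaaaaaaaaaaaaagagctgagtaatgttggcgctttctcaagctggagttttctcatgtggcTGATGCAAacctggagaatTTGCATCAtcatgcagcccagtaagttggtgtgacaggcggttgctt
Slc43a1: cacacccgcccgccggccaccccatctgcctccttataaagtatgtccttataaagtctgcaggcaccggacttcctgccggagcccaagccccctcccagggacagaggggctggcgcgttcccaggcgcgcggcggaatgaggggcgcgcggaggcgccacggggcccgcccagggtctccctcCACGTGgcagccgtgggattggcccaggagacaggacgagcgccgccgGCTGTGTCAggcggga

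The motifs were the amino acid response element TGATGNAA, to which ATF4 binds with a partner, the antioxidant response element TGACNNNGC, to which NRF2 binds, and the E-box CACGTG, to which MYC and MAX bind. The Slc7a11 window held the amino acid response element at both marked places, from -66 to -59 on the gene's strand (TGATGCAA) and from -47 to -40 on the other strand (TTGCATCA), counted back from the start. Among 32851 RefSeq windows of the same length, 3.45% held this motif, 10.2% the antioxidant response element and 6.02% the E-box. The Slc43a1 window held the E-box from -64 to -59 and the antioxidant response element from -16 to -8 (GCTGTGTCA, other strand), and none of the matches overlapped. RefSeq windows were at hand for 7 of the 10 transporters. Of the other 5, those of Slc7a6, Slc38a2 and Slc7a1 held the antioxidant response element, though not in every window of Slc7a6 and Slc7a1. Those of Slc3a2 and Slc38a9 held none of the motifs. A match describes the letters only, and says nothing of whether a factor was bound in these cells.

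LAT1 transcripts were lower while those of its heavy chain did not pass the threshold. Slc7a5 (ENSMUSG00000040010, chromosome 8), the LAT1 light chain, had 22.7, 18.1 and 21.0 CPM in TNFR2-deficient libraries and 28.2, 28.9 and 27.6 CPM in TNFR2-positive libraries. Every TNFR2-deficient library was below every TNFR2-positive one, with library 2 lowest (1.37-fold lower, log2FC = -0.45, SE 0.0855, edgeR adjusted p = 0.000529). Slc3a2 (ENSMUSG00000010095, chromosome 19), the heavy chain that carries LAT1, xCT and other light chains to the membrane, had 89.6, 96.7 and 91.4 CPM in TNFR2-deficient libraries and 78.4, 81.5 and 90.4 CPM in TNFR2-positive libraries. The groups overlapped at TNFR2-positive library 3 (log2FC = 0.15, SE 0.0679, edgeR adjusted p = 0.0671), and without that library Slc3a2 passed the threshold (log2FC = 0.21, edgeR adjusted p = 0.0176). The ratio of Slc7a5 to Slc3a2 counts was 0.253, 0.187 and 0.230 in TNFR2-deficient libraries and 0.359, 0.355 and 0.305 in TNFR2-positive libraries. The ratios did not overlap, and the exact two-sided permutation p of 0.1 is the smallest that 3 against 3 libraries can give.

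Slc7a6 (ENSMUSG00000031904, chromosome 8) encodes y+LAT2, a further light chain of 4F2hc, which exports arginine in exchange for glutamine and sodium. It had 36.6, 36.0 and 35.8 CPM in TNFR2-deficient libraries and 49.8, 42.1 and 47.1 CPM in TNFR2-positive libraries. The TNFR2-deficient values lie close together and below all TNFR2-positive ones (log2FC = -0.36, SE 0.0715, edgeR adjusted p = 0.00074). The log2FC of Slc7a6 was -0.19 with the relation to transcript length removed, still past the threshold (edgeR adjusted p = 0.0122).

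The light chains around 4F2hc were set side by side on a per-length scale. The known partners Slc7a5, Slc7a6, Slc7a7, Slc7a8, Slc7a10 and Slc7a11 were summed as CPM per kilobase of exonic length, a grouping made after the values were seen. Slc7a11 made up 13.0% ± 0.432 of the sum in TNFR2-deficient libraries and 1.08% ± 0.27 in TNFR2-positive libraries (SD, n = 3 each). Slc7a5 made up 25.6% ± 2.12 in TNFR2-deficient and 37.2% ± 1.87 in TNFR2-positive libraries, and Slc7a6 36.5% ± 0.897 and 49.4% ± 2.67. Slc7a7, which encodes y+LAT1, made up 16.9% ± 1.89 in TNFR2-deficient and 9.85% ± 0.889 in TNFR2-positive libraries, and Slc7a8, which encodes LAT2, 7.92% ± 0.414 and 2.17% ± 0.488. For each of these 5 the libraries of the groups did not overlap (exact permutation p = 0.1, the smallest possible, 0.108 adjusted over 13 shares in 3 families). Among all tested genes, 74.5% did not overlap in CPM. Slc7a10 had at most 0.187 CPM in any library, near the floor of 3 counts. The summed level was 21.7 ± 0.749 CPM per kilobase in TNFR2-deficient and 20.5 ± 0.639 in TNFR2-positive libraries (exact permutation p = 0.2), and 27.2 ± 0.808 and 24.3 ± 0.792 with the length of the longest coding transcript (exact permutation p = 0.1). Set against Slc3a2 per kilobase, the light chains came to 0.827 ± 0.059 in TNFR2-deficient and 0.870 ± 0.0743 in TNFR2-positive libraries, a difference within the spread between replicates (exact permutation p = 0.5). With transcript length the ratio was 0.827 ± 0.0543 in TNFR2-deficient and 0.821 ± 0.0698 in TNFR2-positive libraries, so that its direction turned (exact permutation p = 0.8).

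**Figure D2:**
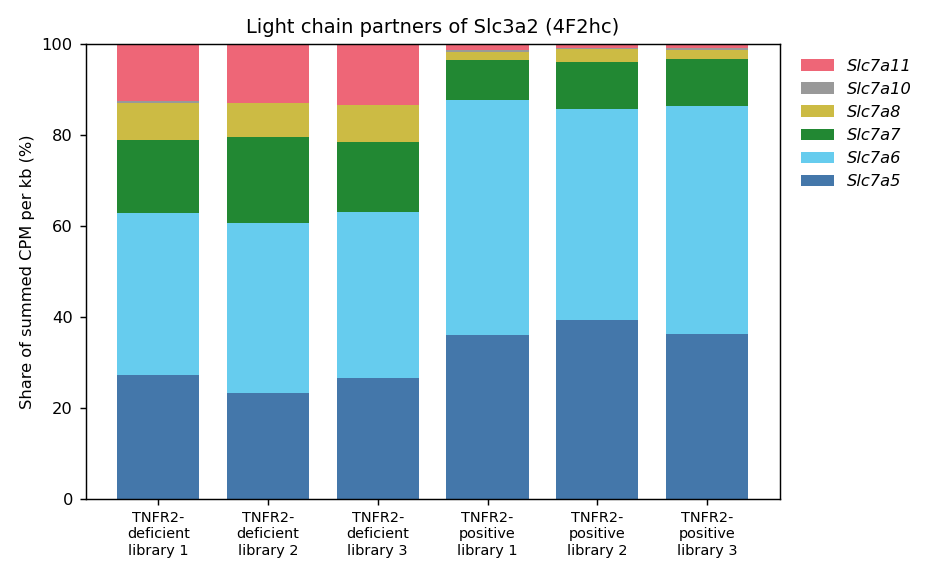
Share of each light chain partner of 4F2hc in their summed CPM per kilobase of exonic length (vertical axis, percent), one stacked bar per library. The Slc7a11 share averages 13.0% in the 3 TNFR2-deficient libraries and 1.08% in the 3 TNFR2-positive ones, while Slc7a5 and Slc7a6 take smaller shares in the TNFR2-deficient libraries.

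The carriers of large neutral amino acids were also summed as a family, again chosen after the values were seen. LAT1 to LAT4 together reached 24.0 ± 1.28 CPM per kilobase in TNFR2-deficient and 17.3 ± 0.586 in TNFR2-positive libraries (exact permutation p = 0.1, the smallest possible). LAT1 (Slc7a5) made up 23.1% ± 1.69 of that sum in TNFR2-deficient and 43.9% ± 0.48 in TNFR2-positive libraries. LAT3 (Slc43a1) made up 29.1% ± 2.02 in TNFR2-deficient and 9.63% ± 1.54 in TNFR2-positive libraries. LAT4 (Slc43a2), a close relative of LAT3, held 40.6% ± 0.204 in TNFR2-deficient and 43.9% ± 1.5 in TNFR2-positive libraries. Its share was smaller in TNFR2-deficient libraries though its level was higher, at 97.8 ± 5.61 CPM against 76.5 ± 3.36 CPM in TNFR2-positive libraries (log2FC = 0.35, edgeR adjusted p = 0.000435).

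Among the glutamine carriers, ASCT2 transcripts did not pass the threshold, and the SNAT transcripts were lower, a call that did not stand once the relation to gene length was removed. Slc1a5 (ENSMUSG00000001918, chromosome 7), which encodes the neutral amino acid exchanger ASCT2, had 228.5, 238.4 and 234.1 CPM in TNFR2-deficient libraries and 220.3, 240.2 and 234.5 CPM in TNFR2-positive libraries. The ranges overlap almost wholly (log2FC = 0.01, SE 0.0583, edgeR adjusted p = 0.861). Slc38a1 (ENSMUSG00000023169, chromosome 15), which encodes the sodium-coupled glutamine carrier SNAT1, had 178.2, 168.0 and 185.8 CPM in TNFR2-deficient libraries and 301.4, 245.7 and 247.1 CPM in TNFR2-positive libraries. TNFR2-positive library 1 was the highest and the groups did not overlap (log2FC = -0.58, SE 0.0825, edgeR adjusted p = 6.52e-05). Slc38a2 (ENSMUSG00000022462, chromosome 15), which encodes SNAT2, a carrier induced when amino acids run short, had 304.1, 293.2 and 300.5 CPM in TNFR2-deficient libraries and 412.8, 358.8 and 366.4 CPM in TNFR2-positive libraries. It too was lower without overlap (log2FC = -0.34, SE 0.0654, edgeR adjusted p = 0.000585). With the relation to exonic length removed, the log2FC was 0.08 for Slc38a1 and 0.04 for Slc38a2 (edgeR adjusted p = 0.155 and 0.508), so neither call stood. With the relation to exonic and intronic length together removed, Slc38a1 was called higher (log2FC = 0.16, edgeR adjusted p = 0.0106). It is the longest of the 10, with 17236 exonic bases.

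CAT1 showed the largest decrease among the 10. Slc7a1 (ENSMUSG00000041313, chromosome 5), which encodes this carrier of arginine, lysine and ornithine, had 40.5, 36.1 and 38.4 CPM in TNFR2-deficient libraries and 85.3, 76.7 and 75.7 CPM in TNFR2-positive libraries. The highest TNFR2-deficient value lies well below the lowest TNFR2-positive one (2.07-fold lower, log2FC = -1.05, SE 0.0708, edgeR adjusted p = 1.9e-07). The decrease was smaller with the relation to exonic length removed (log2FC = -0.55, edgeR adjusted p = 4.27e-07), or to transcript length (-0.51) or exonic and intronic length together (-0.49), and passed the threshold each time. The CAT family, CAT1 to CAT3, was again grouped after the values were seen. Per kilobase, Slc7a1 made up 87.0% ± 2.08 of its sum in TNFR2-deficient and 95.6% ± 1.42 in TNFR2-positive libraries. The family sum was 3.83 ± 0.268 and 7.19 ± 0.46 CPM per kilobase (exact permutation p = 0.1, the smallest possible), so it mostly repeats Slc7a1. The others were at low levels. Slc7a2 averaged 2.77 and 1.34 CPM, and Slc7a3 0.746 and 0.637 CPM, in TNFR2-deficient and TNFR2-positive libraries.

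Slc38a9 (ENSMUSG00000047789, chromosome 13) encodes a lysosomal membrane protein that signals arginine to mTORC1 and lets leucine and other amino acids out of the lysosome. It had 75.4, 74.4 and 76.3 CPM in TNFR2-deficient libraries and 99.0, 86.3 and 76.8 CPM in TNFR2-positive libraries. TNFR2-positive library 3 lies just above the TNFR2-deficient values (log2FC = -0.21, SE 0.083, edgeR adjusted p = 0.0367). Without TNFR2-positive library 1 the log2FC was -0.12 (edgeR adjusted p = 0.0748), the call was likewise lost without TNFR2-positive library 2 or any 1 TNFR2-deficient library, and with the relation to exonic length removed the gene was higher (log2FC = 0.44, edgeR adjusted p = 3.25e-06). Its exons overlap those of an antisense gene, Gm47827, with 394 counts over the 6 libraries against 5226 for Slc38a9 in TNFR2-deficient and 5638 in TNFR2-positive libraries, and without a stated strand setting such reads cannot be told apart.

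**Figure D3:**
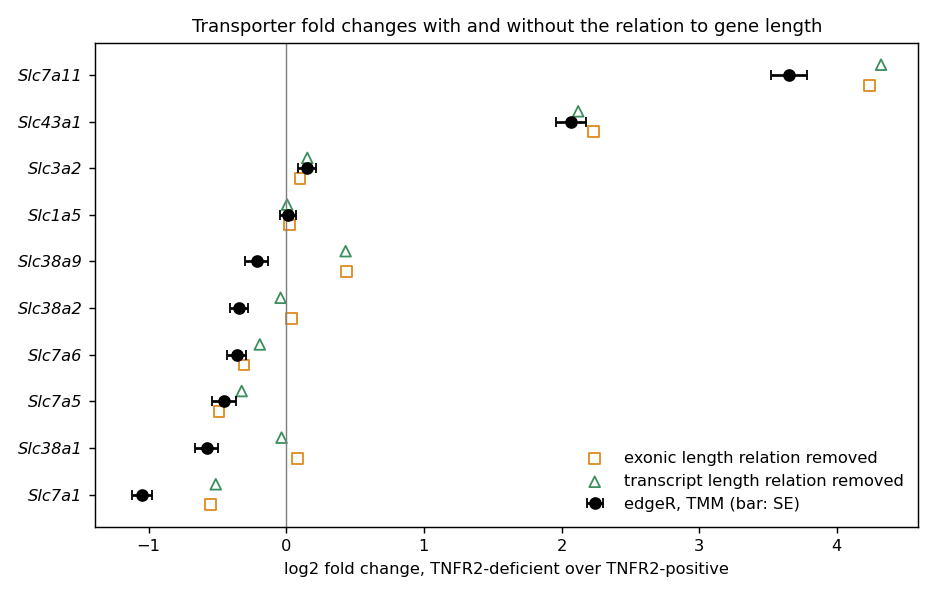
log2 fold change of each transporter, TNFR2-deficient over TNFR2-positive (horizontal axis), from edgeR with its SE (black), with the relation to exonic length removed (squares) and to transcript length removed (triangles). Slc7a11 and Slc43a1 lie right of 0 and Slc7a1, Slc7a5 and Slc7a6 left of 0 under all 3, while Slc38a9 changes sides, Slc38a1 and Slc38a2 move to near 0, and Slc3a2 and Slc1a5 lie near 0 throughout.

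Per kilobase of exonic length, ASCT2 was the most abundant of the 10 transcripts and xCT the least. Slc1a5 stood at 56.0 ± 1.18 CPM per kilobase in TNFR2-deficient and 55.5 ± 2.46 in TNFR2-positive libraries, followed by Slc38a2 at 33.9 ± 0.632 and 42.9 ± 3.30. Slc3a2 came next at 26.2 ± 1.05 in TNFR2-deficient and 23.6 ± 1.77 in TNFR2-positive libraries, then Slc38a1 at 10.3 ± 0.52 and 15.4 ± 1.84, and Slc7a6 at 7.90 ± 0.0943 and 10.1 ± 0.855. Below these the order differed between groups. In TNFR2-deficient libraries it ran Slc43a1 (6.98 ± 0.382), Slc7a5 (5.55 ± 0.623), Slc38a9 (4.51 ± 0.0565), Slc7a1 (3.33 ± 0.192) and Slc7a11 (2.82 ± 0.0811). In TNFR2-positive libraries it ran Slc7a5 (7.61 ± 0.18), Slc7a1 (6.87 ± 0.457), Slc38a9 (5.23 ± 0.669), Slc43a1 (1.67 ± 0.283) and Slc7a11 (0.222 ± 0.0614). In neither order did the library values of neighbouring genes overlap. With the length of the longest coding transcript instead, several places changed, Slc38a1 passing Slc3a2 in TNFR2-positive and Slc43a1 passing Slc7a6 in TNFR2-deficient libraries among them, and Slc1a5, Slc38a2 and Slc7a11 kept their places.

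As shares of the summed per-kilobase level of the 10, Slc1a5 took 35.6% ± 0.648 in TNFR2-deficient and 32.8% ± 2.05 in TNFR2-positive libraries. Slc43a1 took 4.43% ± 0.216 in TNFR2-deficient and 0.99% ± 0.184 in TNFR2-positive libraries, and Slc7a1 2.11% ± 0.129 and 4.06% ± 0.201. The groups did not overlap for 9 of the 10 shares (exact permutation p = 0.1, the smallest possible, 0.111 adjusted over the 10), the exception being Slc38a9 (exact permutation p = 0.4). By CPM, the groups did not overlap for 74.5% of all tested genes. Dividing by length scales every library alike, so these shares still hold the relation to gene length given above, those of Slc38a1 and Slc38a2 included. Summed without regard to length, the 10 transporters came to 1052 ± 13.4 CPM in TNFR2-deficient and 1213 ± 64.1 CPM in TNFR2-positive libraries (exact permutation p = 0.1, the smallest possible).

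Other amino acid transporters were drawn from a list of 27, of which 20 were tested. Of these, 11 rose, 4 fell and 5 did not pass the edgeR threshold, with a median log2FC of 0.30, beside 0.04 over all tested genes. The called share was 75%, beside 69.3% of all tested genes (35.1% higher and 34.2% lower). The smallest adjusted p among those that rose belonged to Slc7a8 (LAT2), at 9.25, 7.85 and 8.69 CPM in TNFR2-deficient and 1.97, 2.71 and 1.97 CPM in TNFR2-positive libraries (log2FC = 1.96, SE 0.156, edgeR adjusted p = 6.89e-07), and to Slc7a7 (y+LAT1; log2FC = 0.86, edgeR adjusted p = 3.55e-05). Among those that fell it belonged to Slc36a4, a proline and tryptophan carrier (log2FC = -0.94, edgeR adjusted p = 8.66e-06), and Slc6a6, the taurine transporter (log2FC = -0.70, edgeR adjusted p = 9.44e-06). Myeloid markers were higher in the same libraries (895.0 to 967.4 CPM in TNFR2-deficient and 477.5 to 535.7 CPM in TNFR2-positive libraries), and their part in these rises was not tested.

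Of 37 genes of mTORC1 and amino acid sensing tested, 10 rose and 12 fell (median log2FC = -0.04). The called share of 59.5% compares with 69.3% of all tested genes, 35.1% higher and 34.2% lower. The Ragulator subunits Lamtor4 and Lamtor5, which anchor the Rag GTPases to the lysosome, rose by 0.74 and 0.59 on the log2 scale (edgeR adjusted p = 5.84e-06 and 6.11e-06). Depdc5, a subunit of the GATOR1 complex that restrains mTORC1 when amino acids are scarce, had a log2FC of -0.88, and Tsc1, a brake on the mTORC1 activator Rheb, one of -0.77 (edgeR adjusted p = 8.01e-07 and 1.96e-06). Related genes, named after their values were seen, went other ways. Nprl2, also of GATOR1, was higher (log2FC = 0.80, edgeR adjusted p = 7.84e-06), and Nprl3 did not pass (log2FC = 0.02, edgeR adjusted p = 0.823). Mtor, the kinase itself, was lower (log2FC = -0.79, edgeR adjusted p = 3.72e-06). With the relation to exonic length removed, 15 genes of the list were called higher and 9 lower, beside 39.0% and 29.2% of all genes in that fit.

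Of 20 genes of the response to amino acid shortage tested from a list of 23, 6 rose and 7 fell (median log2FC = -0.05). The called share of 65% is near the 69.3% of all tested genes. Ddit4, which encodes the mTORC1 inhibitor REDD1, and Atf5 rose by 0.65 and 0.99 on the log2 scale (edgeR adjusted p = 3.64e-06 and 1.82e-05). Eif2ak4, which encodes the sensor kinase GCN2, had a log2FC of -0.72, and Aldh18a1, an enzyme of proline synthesis, one of -0.73 (edgeR adjusted p = 1.26e-06 and 3.45e-06). Atf4, named because its motif is in the Slc7a11 window, was at 319.6 ± 12.3 CPM in TNFR2-deficient and 252.9 ± 16.4 CPM in TNFR2-positive libraries (log2FC = 0.34, SE 0.0647, edgeR adjusted p = 0.000599). Asns, asparagine synthetase and a known ATF4 target, and Trib3, another, had log2FC of 0.26 and 0.51 and did not pass (edgeR adjusted p = 0.299 and 0.155). They were singled out after their values were seen, and both were at low levels, with means of 1.96 and 1.05 CPM in TNFR2-deficient and 1.65 and 0.745 CPM in TNFR2-positive libraries. Genes of the list at higher levels, likewise singled out, were called in both directions. Psat1 and Mthfd2 were lower (log2FC = -0.46 and -0.56, edgeR adjusted p = 7.3e-05 and 4.29e-05). Ddit3 and Psph were higher (log2FC = 0.29 and 0.35, edgeR adjusted p = 0.00367 and 0.00225).

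The regulators of the transporters included the factors behind the motifs. Of 9 tested from a list of 10, 4 rose and 4 fell (median log2FC = 0.07), beside 35.1% higher and 34.2% lower among all tested genes. With the relation to exonic length removed, 2 were called lower. Myc, which drives transporter genes in activated T cells, was at 96.3 ± 3.60 CPM in TNFR2-deficient and 163.1 ± 5.79 CPM in TNFR2-positive libraries (log2FC = -0.76, SE 0.0596, edgeR adjusted p = 6.2e-07), and its partner Max rose (log2FC = 0.39, edgeR adjusted p = 5.7e-05). Hif1a, the hypoxia factor, had a log2FC of -0.53, and Bach1, a repressor at antioxidant response elements, one of 0.57 (edgeR adjusted p = 9.92e-05 and 6.16e-05). Nfe2l2, which encodes NRF2, and Keap1, its inhibitor, were both higher and are named because of the motif (log2FC = 0.31 and 0.45, edgeR adjusted p = 0.0026 and 0.000166). Markers of activation and cycling, a list that includes Myc, were lower for 7 of 10 and higher for 1. They came to a summed 801.8 to 863.2 CPM in TNFR2-deficient and 1323 to 1468 CPM in TNFR2-positive libraries. Which cells held these transcripts cannot be told from bulk RNA, and their part in the falls of Slc7a5 and Slc7a1 was not tested.

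Downstream of uptake, cytosolic aminoacyl-tRNA synthetases, which load amino acids onto tRNA, were lower for 9 of 20 and higher for 2 (median log2FC = -0.13), a called share of 55% beside 69.3% of all tested genes. Without TNFR2-positive library 1, 12 were called lower. Eprs and Iars, the synthetases for glutamate with proline and for isoleucine, fell by 0.98 and 0.88 on the log2 scale (edgeR adjusted p = 1.65e-07 and 2.48e-07). Those that rose were Hars and Farsa, for histidine and phenylalanine (log2FC = 0.18 and 0.15, edgeR adjusted p = 0.0229 and 0.0425), and this count was between 0 and 6 over the alternatives. Of 21 genes of amino acid use, 8 rose and 9 fell (median log2FC = 0.04), beside 35.1% higher and 34.2% lower among all tested genes. The branched-chain aminotransferases diverged. Bcat2, the mitochondrial form, was at 84.6 ± 5.11 CPM in TNFR2-deficient and 29.3 ± 1.13 CPM in TNFR2-positive libraries (log2FC = 1.53, edgeR adjusted p = 5.3e-09), and Bcat1, the cytosolic form, at 0.96 ± 0.364 CPM in TNFR2-deficient and 4.68 ± 0.625 CPM in TNFR2-positive libraries (log2FC = -2.29, edgeR adjusted p = 9.7e-06). Glul, glutamine synthetase, rose by 0.89 and Odc1, which makes putrescine from ornithine, fell by 1.04 on the log2 scale (edgeR adjusted p = 8.04e-08 and 4.04e-08). The glutathione genes, which use the cysteine that xCT supplies, were not uniform, with members chosen after their values were seen. Gclc, the catalytic subunit of the first enzyme of synthesis, had a log2FC of -0.76, and its modifier subunit Gclm one of 0.38 (edgeR adjusted p = 1.57e-05 and 0.00144). Of the other glutathione genes in the list, Gss and Gpx4 were higher (log2FC = 0.68 and 0.85, edgeR adjusted p = 0.000201 and 1.93e-06). Gsr was lower (log2FC = -0.35, edgeR adjusted p = 0.00215).

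**Figure D4:**
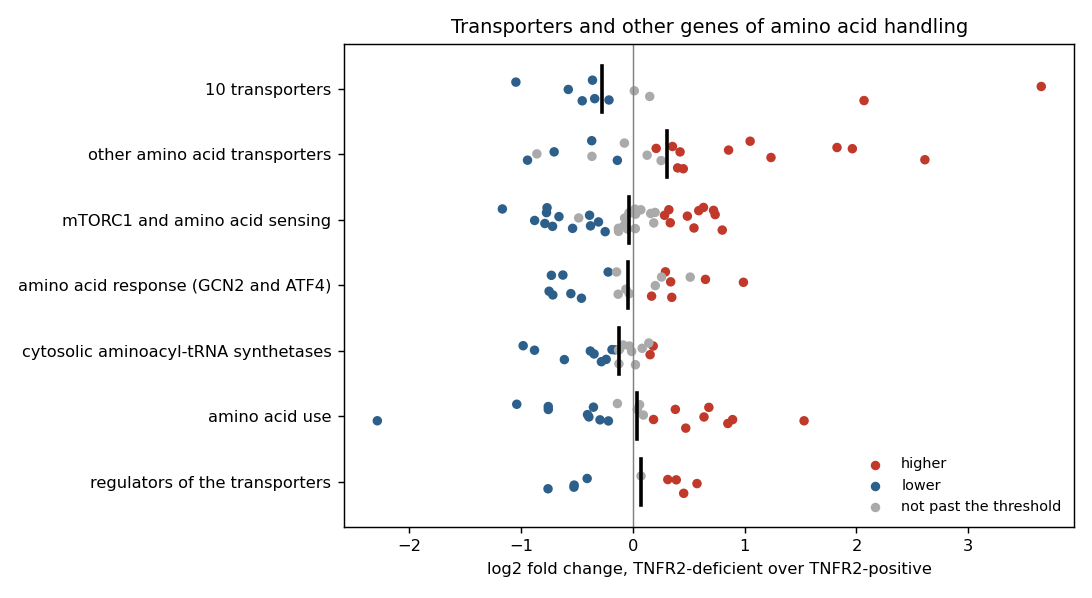
log2 fold change, TNFR2-deficient over TNFR2-positive (horizontal axis), of each tested gene in the 10 transporters and 6 related lists, coloured by its edgeR call, with a black bar at each list's median. The medians lie between -0.28 and 0.30, and each list holds genes called in both directions.

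The genes whose pattern was most like that of Slc7a5, by Pearson correlation of log2 CPM over the 6 libraries, were Tcea1 (r = 0.996), Gm28053 (r = 0.993) and Lrrc18 (r = 0.993). Gm28053 and Lrrc18 were at low levels, from 1.94 to 4.81 CPM and from 0.271 to 1.07 CPM over the 6 libraries, so their values rest on few counts. As a description of how common such likeness is here, 2322 of 12594 tested protein-coding genes had r above 0.9, and the 6 points fall into the 2 groups being compared.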

How the data were processed

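RNA was captured with oligo-dT beads, per the labels' protocols, and HISAT2 2.1.0 and the build GRCm39 are named per the submitters' processing notes. The counting program, its annotation, its strand setting and its treatment of multiply placed reads were not given in the sources used here. Raw counts per gene, as whole numbers, are what the authors deposited. Identifiers lacking a symbol (0.495% to 0.596% of all counts) were tested too.

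The quasi-likelihood test of edgeR 4.0.16 (R 4.3.3) was run over all 6 libraries with the group as the only term, after the filterByExpr filter and TMM scaling, with Benjamini-Hochberg adjustment over 17022 genes. SE is the absolute log2FC over the square root of the F statistic. Levels are TMM-scaled CPM. Shares and ratios were compared by exact two-sided permutation tests over libraries, whose smallest p is 0.1. Exonic lengths came from GENCODE M21, of an older build than the counts, and covered 97.7% of the tested genes. The relation to length was removed with offsets from splines with 4 degrees of freedom fitted in each library. The edgeR script was tested on simulated data. Figures were drawn with matplotlib 3.10.9.

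The members and gene lists were chosen with earlier results of these data known. The rule for names took all 10 transporters, and from each list the 2 genes of smallest adjusted p in each direction and any gene another result turned on. Chi-square values between replicates were above sampling noise, so each library counted once. The 18 alternatives were DESeq2 1.42.0, voom of limma 3.58.1, other scalings and filters, the replicate number as a block, removal of the relation to length in 3 ways, leaving out genes of other cells and mitochondria, and leaving out each library. Removal by transcript length and by exonic and intronic length together was added after the data were seen, as was transcript length for the shares.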

Additional observations from a re-analysis of the deposited data

How the results depend on the processing

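Over the 18 alternatives, Slc7a11, Slc43a1, Slc7a5, Slc7a6 and Slc7a1 kept their direction and stayed past the threshold, with log2FC of 3.52 to 4.32, 1.93 to 2.23, -0.53 to -0.32, -0.43 to -0.19 and -1.09 to -0.49. Removing the relation to length left 3 transporters lower in each of the 3 ways, and 4 higher with transcript length or with exonic and intronic length together; their median log2FC was then 0.060 with exonic length and 0.0025 with exonic and intronic length. Slc38a9 turned to 0.44, 0.43 and 0.51 with exonic, transcript, and exonic and intronic length; Slc38a1 to 0.083 with exonic length and 0.16 with exonic and intronic length, and Slc38a2 to 0.037 with exonic length. Slc38a9 also missed the threshold with upper-quartile scaling (log2FC = -0.16, edgeR adjusted p = 0.0809), its log2FC running from -0.30 to -0.12 with 1 library left out. Slc3a2 passed with upper-quartile scaling, no filter, transcript length removed or TNFR2-positive library 3 left out (log2FC = 0.20, 0.18, 0.15 and 0.21). The sign of Slc1a5, whose adjusted p was at least 0.386 throughout, changed with DESeq2 (log2FC = -0.0064), RLE scaling (-0.020), library size only (-0.0019), a filter of 1 CPM in 3 libraries (-0.00081), without genes of other cells and mitochondria (-0.0048), with exonic and intronic length (-0.035), and within the range of -0.026 to 0.037 with 1 library left out. The count of aminoacyl-tRNA synthetases called higher was 0 with DESeq2 and RLE scaling, 1 with library size only, the 1 CPM filter or genes of other cells left out, 6 with exonic length removed, 4 with exonic and intronic length removed, and 0 to 1 with 1 library left out. Regulators called lower numbered 2 with exonic, or exonic and intronic, length removed. Apart from the construction of each removal, the cause of these changes was not tested.

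The correlations of same-numbered libraries were 0.070, 0.096 and -0.090, and not every library correlated best with its own number. They were taken on deviations from group means of 3 libraries, so they cannot show whether equal numbers share an animal or batch. With the replicate number as a block, 2 transporters were higher and 6 lower, as without it, and over all genes 6005 were higher and 5851 lower.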
